A study of Astyanax mexicanus with 36 samples.

Results

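Of 27420 genes counted in oocytes of the Mexican tetra, Astyanax mexicanus, 41 had almost no reads in growing surface fish oocytes and were read in both cave populations. They were chosen from measured read counts over the 3 larger of 4 oocyte size categories: at most 9 reads summed over the 9 surface libraries, more than 9 in the 9 Pachón and in the 9 Molino libraries, and a mean level of at least 2 CPM (the gene's reads relative to all gene reads of the library, on the usual CPM scale) in Pachón or in Molino. The choice yields 43 genes, of which 2, rd3 and CNGA3, were left out. Differences between surface fish and the cave populations at these sizes, and the cave levels themselves, are therefore given without a test. The same choice with Pachón or Molino as the silent population finds 103 and 154 genes, with no symbols left out.

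Growing fish oocytes transcribe and store RNA and protein that the embryo uses before its own genome is switched on, so the oocyte RNA pool is mainly maternal. Surface fish live in rivers, and the Pachón and Molino cavefish descend from surface ancestors that entered separate caves. A read counted for a gene records RNA that could be assigned to that gene's sequence in the reference. Of the 41 genes, 20 carry a symbol and 21 only an Ensembl number, for which the files give no function.

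Wild-type, untreated fish of all 3 populations were sampled at about 520 days, and oocytes of the right ovary were sorted into the categories 40um, 40_100um, 100_300um and 300um. Each of the 12 groups has 3 libraries of total RNA, which makes 36. Nothing in the labels tells whether the 3 libraries of a group are separate fish, pools or repeats of 1 fish, so every p-value below covers library-to-library spread only, which may be technical.

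Libraries held 2992119 to 9345334 reads in genes, and the deepest 40um library 6866254. All 10 oocyte markers, among them gdf9, bmp15, figla and zar1, had reads in every group, and their summed level was 2724 to 8048 CPM at the larger sizes and 1397 to 12154 CPM at 40um. The 40um libraries also held markers of other cells. There, the granulosa cell markers (8 of 8 found) summed to 96.6 to 518 CPM in surface fish, 482 to 1007 CPM in Pachón and 170 to 1142 CPM in Molino. Of these markers, foxl2a had no read in the surface 40um libraries. Surface fish 100_300um replicate 1 stood apart, with plasma protein markers at 806 CPM against 34.5 and 43.6 CPM in the other 2 libraries of its group. It also held 68 of the reads described next, the most of the 9 surface libraries of the larger sizes. Without it 70 genes would be chosen with the limit kept at 9 reads, though leaving out any surface library cannot lower the number. In bulk RNA, fewer cells of a type and less RNA per cell cannot be told apart.

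The near silence in surface fish at the 3 larger sizes was required by the choice. Its limit of 9 reads per gene over the 9 libraries forces low counts in each, so the values here are a description only. Reads over all 41 genes came to 18, 19 and 14 in the 40_100um libraries, 68, 17 and 23 in the 100_300um libraries, and 16, 28 and 11 in the 300um libraries. These 214 surface reads lie among 63822627 gene reads, and the cave sums were 8873 in Pachón and 14320 in Molino. No gene had more than 7 reads in any one surface library, and the highest surface mean was 0.158 CPM. A total of 2 genes, prrg2 and ENSAMXG00000037969, had no surface read at these sizes, which allows a level of up to 0.0470 CPM (3 reads; counting error only). The other 39 had 1 to 9 reads.

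**Figure D1:**
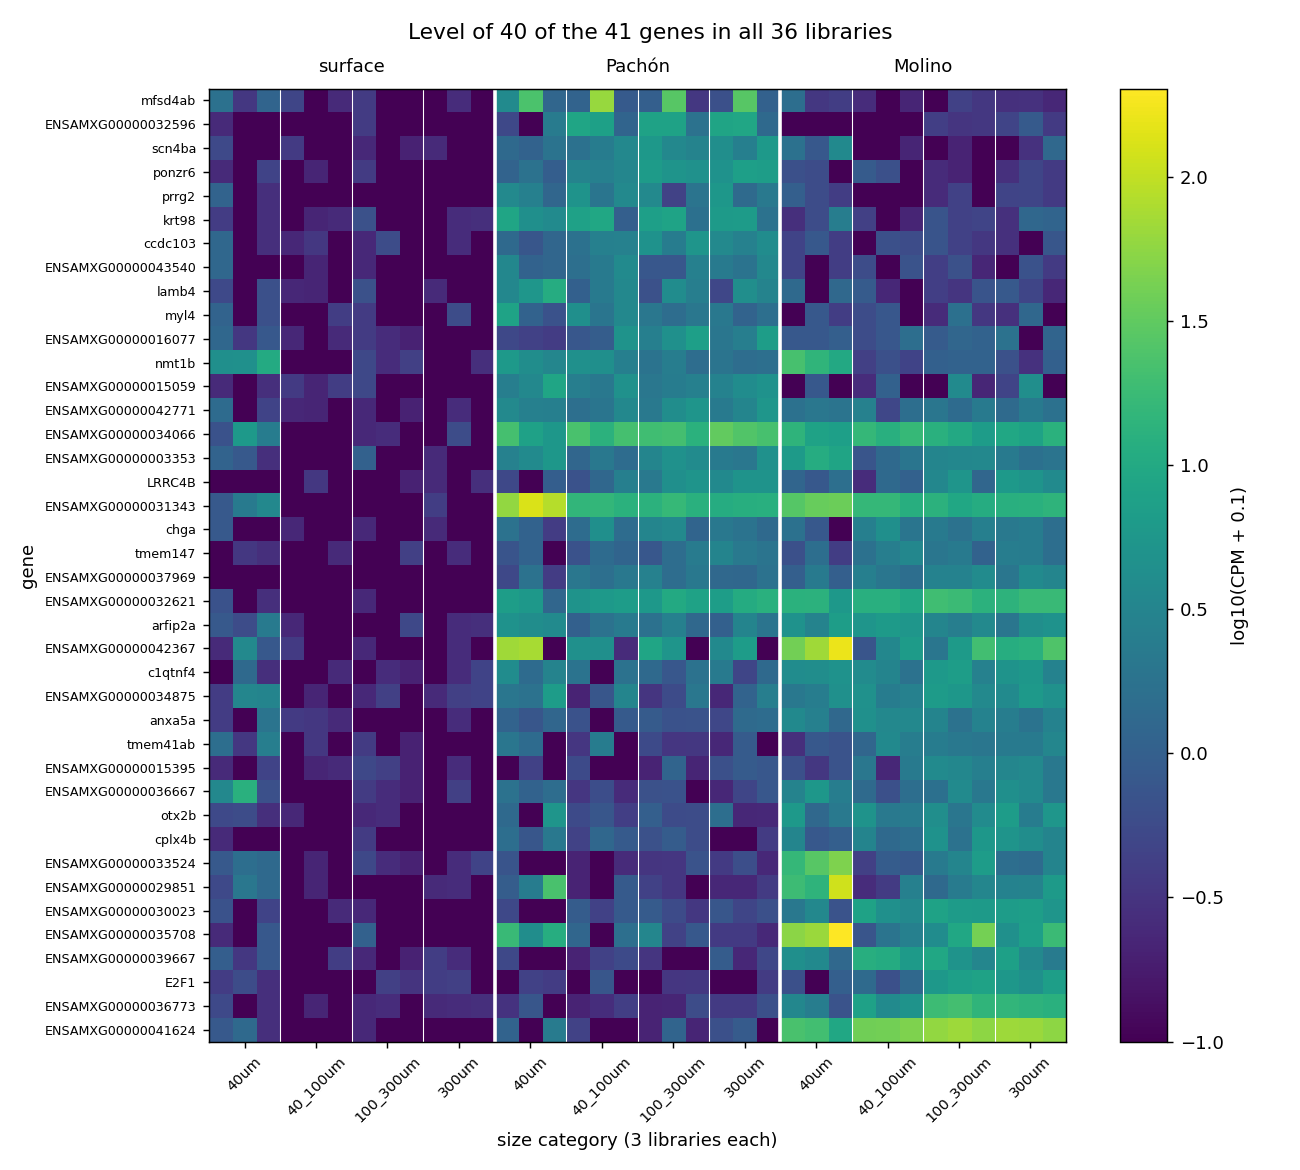
Level of 40 of the 41 genes (rows) in each of the 36 libraries (columns), as log10 of CPM plus 0.1, with genes ordered from those higher in Pachón to those higher in Molino. The surface columns are dark at the 3 larger sizes, as the choice required. They are partly lit at 40um, where the summed level was 31.3 to 41.7 CPM.

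The 41 genes did not share one cave pattern. Only 8 of the 41 reached a mean of 2 CPM in both cave populations, 14 reached it in Pachón alone and 19 in Molino alone. The mean of the higher cave population was 1.04 to 166 times that of the lower, with a median of 6.25, and the ratio was under 2 for 9 genes. In the lower cave population 20 genes had a mean below 0.5 CPM and 10 had at most 18 reads, which is close to the limit of 9 that set surface fish apart.

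**Figure D2:**
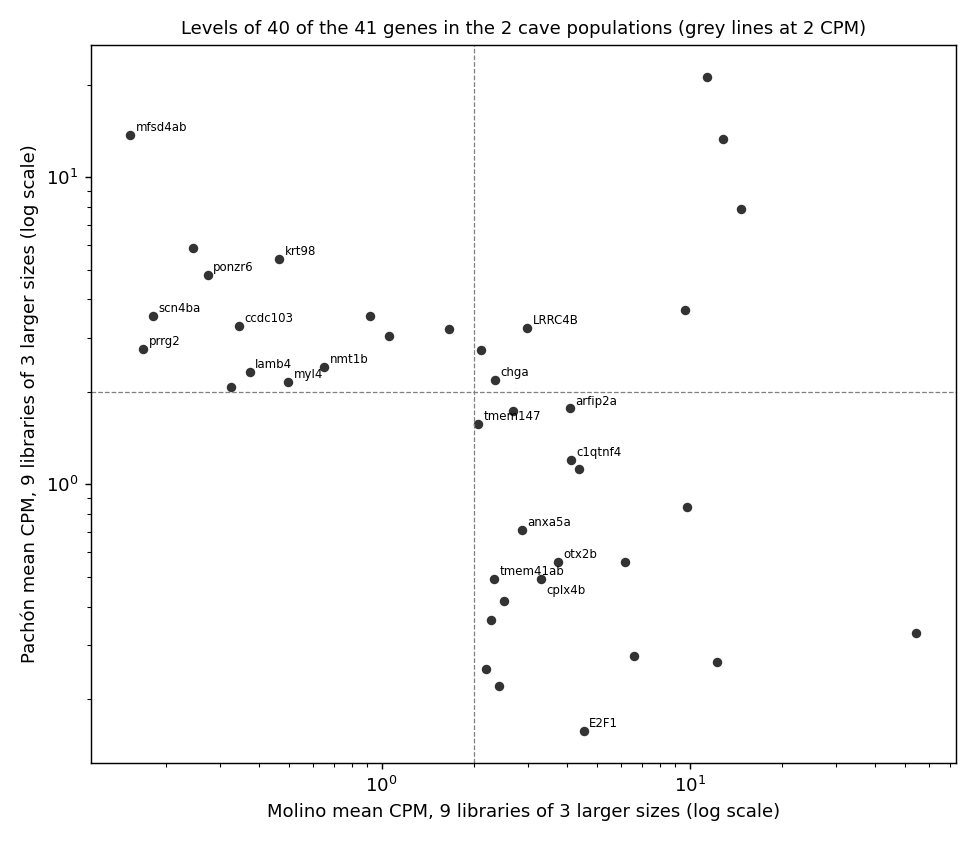
Mean CPM of 40 of the 41 genes over the 9 Pachón libraries (vertical, log scale) and the 9 Molino libraries (horizontal, log scale) of the 3 larger sizes, with symbols where the files give one. The upper right holds genes at 2 CPM or more in both, among them LRRC4B and chga, and mfsd4ab and E2F1 lie near opposite corners.

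The genes just inside and just outside the limits differ by little. krt98, ccdc103 and E2F1 had 8 surface reads, whereas PAMR1, pde6a and atp6ap2 had 10 and arrb1 had 11. The higher cave mean was 2.06 CPM for tmem147, 2.15 CPM for myl4, 2.32 CPM for tmem41ab and 2.33 CPM for lamb4. Left outside were ST6GALNAC5 at 1.83 CPM, kcns3a at 1.79 CPM, CDH20 at 1.61 CPM and AGAP2 at 1.59 CPM. In the lower cave population prrg2, E2F1 and mfsd4ab had 10 reads and scn4ba had 12, whereas OTOP3 had 9 and U2 and ctrl had 7. A further 71 genes had 10 to 18 surface reads and met the other criteria.

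The membrane transport genes described here were read mainly in Pachón. mfsd4ab, a member of the major facilitator superfamily of membrane transporters, had a lowest, median and highest level of 0.239, 0.963 and 63.2 CPM in Pachón and at most 0.336 CPM in Molino. Its Pachón mean was carried by the libraries with replicate number 2, as described below. scn4ba, the beta 4 subunit of voltage-gated sodium channels, had 1.61, 3.36 and 5.78 CPM in Pachón and 12 reads over the 9 Molino libraries.

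All 5 genes of the cytoskeleton, cilia and cell adhesion had the higher mean in Pachón. krt98, a keratin, had a lowest, median and highest level of 0.915, 6.37 and 9.24 CPM there and at most 1.16 CPM in Molino. ccdc103 is needed to attach dynein arms in cilia, as shown in zebrafish and human, and its 3 values in Pachón were 1.61, 2.75 and 5.15 CPM against at most 0.673 CPM in Molino. For ccdc103 every Pachón library lay above every Molino library, and for krt98 the ranges overlapped. lamb4, a laminin beta chain of basement membranes, had a mean of 2.33 ± 1.43 CPM in Pachón (SD, n = 9), and myl4, an essential myosin light chain of heart muscle, had 2.15 ± 1.04 CPM. Molino means were 0.373 ± 0.287 CPM for lamb4 and 0.498 ± 0.546 CPM for myl4. The means of LRRC4B, a leucine-rich repeat adhesion protein of synapses, lay close together, with 3.24 ± 1.70 CPM in Pachón and 2.97 ± 2.16 CPM in Molino.

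Both transcription factors had the higher mean in Molino. E2F1 drives genes for entry into DNA synthesis, and its Molino levels were 0.547, 5.57 and 7.81 CPM (lowest, median, highest), whereas 5 of the 9 Pachón libraries had no read and the highest had 0.672 CPM. otx2b, a homeobox factor of head and eye development, had 1.91, 3.85 and 6.69 CPM in Molino and 0.130, 0.467 and 1.48 CPM in Pachón, with no overlap. The photoreceptor and retina markers summed to 74.0 to 94.4 CPM in Molino, 18.8 to 44.9 CPM in Pachón and 50.0 to 72.3 CPM in surface fish at these sizes. No member is among these markers only because rd3 and CNGA3, which are, were left out of the choice. The sums thus include genes that met the choice, and their part in this order was not tested.

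Secreted, vesicle and membrane proteins went both ways. chga encodes chromogranin A, a protein of secretory granules, and its levels in the 2 cave populations overlapped, at 2.19 ± 1.17 CPM in Pachón and 2.34 ± 0.853 CPM in Molino. c1qtnf4, a secreted protein with C1q domains, had 1.20 ± 0.706 CPM in Pachón and 4.13 ± 1.72 CPM in Molino. cplx4b, a complexin that controls vesicle release at retinal synapses, had 0.491 ± 0.388 and 3.30 ± 1.63 CPM in that order. arfip2a, an arfaptin that binds small GTPases at the Golgi, had 1.77 ± 0.728 and 4.08 ± 1.46 CPM, and anxa5a, an annexin that binds membranes with calcium, had 0.710 ± 0.425 and 2.86 ± 0.869 CPM. ponzr6, of the PLAC8 family, and prrg2, a membrane protein with a vitamin K-dependent domain, were read mainly in Pachón. Their means there were 4.81 ± 1.68 and 2.76 ± 1.72 CPM, with 16 and 10 reads over the Molino libraries. nmt1b, an enzyme that attaches myristate to proteins, had 2.41 ± 1.21 CPM in Pachón and 0.651 ± 0.323 CPM in Molino.

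Among the genes without a symbol, 4 had the most reads, a count that also depends on gene length. ENSAMXG00000041624 had 3425 reads in the 9 Molino libraries (38.5, 55.3 and 67.1 CPM), 24 in Pachón and 1 in surface fish. ENSAMXG00000034066 was high in both cave populations, with 12.8 to 32.5 CPM in Pachón and 6.57 to 16.4 CPM in Molino, against 5 surface reads. ENSAMXG00000031343 was the most even, with means of 13.3 ± 1.83 CPM in Pachón and 12.8 ± 2.12 CPM in Molino (SD, n = 9) against 2 surface reads. ENSAMXG00000032621 had 4.82 to 12.5 CPM in Pachón and 9.62 to 19.4 CPM in Molino against 1 surface read.

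Most of the sister copies that the files name were read in surface oocytes. Teleosts kept many genes as duplicated pairs, named with a and b, and a sister copy or a second gene of the same symbol could take or lose reads of a member where sequences are near identical, which cannot be checked from these counts. Over the 9 surface libraries of the larger sizes, nmt1a had 75.5 ± 6.75 CPM, arfip2b 18.5 ± 3.24 CPM, tmem41aa 8.85 ± 2.22 CPM and mfsd4aa 7.99 ± 1.86 CPM. Their Pachón and Molino means were 47.1 and 68.5 CPM for nmt1a, 21.5 and 24.2 CPM for arfip2b, 4.51 and 7.76 CPM for tmem41aa, and 10.6 and 10.1 CPM for mfsd4aa. These copies were thus read in all 3 populations while nmt1b, arfip2a, tmem41ab and mfsd4ab were near silent in surface fish. anxa5b had 15.1 ± 15.9 CPM in surface fish, with a second gene of that symbol at 0.447 CPM. otx2a and scn4bb stayed at or below 0.599 CPM in every library of the larger sizes, and cplx4a had no read there.

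tmem147, a membrane protein of the endoplasmic reticulum, is the case where the identity of the gene matters most. The member had 5 surface reads, and its means were 1.57 ± 0.780 CPM in Pachón and 2.06 ± 0.660 CPM in Molino. A second gene listed as tmem147, ENSAMXG00000016559, had 21.6 ± 2.85 CPM in surface fish, 8.60 ± 2.68 CPM in Pachón and 12.3 ± 2.67 CPM in Molino (SD, n = 9 each). Its lowest surface library, at 17.8 CPM, lay above its highest cave library, at 15.4 CPM. The levels of tmem147 are therefore uncertain as levels of one gene. LRRC4B and otx2b also share their symbol with a second gene, but that gene's highest level in any library of these sizes was 0.261 and 0.275 CPM.

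The members that could be placed were scattered over the genome. Of the 20 genes with a symbol, 19 were found in the RefSeq gene table of the assembly AstMex3_surface, on 15 chromosomes with at most 2 on any one. None of these 19 lay next to another of them, and the nearest pair, ccdc103 and prrg2, were 78 genes apart. LRRC4B and the 21 genes without a symbol were not placed. By role, the genes with a symbol included 5 genes of the cytoskeleton and adhesion, 2 transcription factors, 2 secreted proteins, 1 metabolic enzyme and 7 others.

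At 40um, a size the choice did not use, most of the genes were read in surface fish too. The 40um libraries may come from the same fish as the larger sizes, so the 40um comparisons are not shown to be independent of the choice. Surface reads over the 41 genes came to 215, 169 and 219 in the 3 libraries, and 39 genes had at least 1 read. The summed level was 31.3 to 41.7 CPM against 2.01 to 9.38 CPM in the larger sizes, where the choice itself required few reads. Of the 41 genes, 19 had more than 9 surface reads at 40um and 10 (24.4%) had at most 3. Among the genes silent in Pachón alone, 51 of 103 (49.5%) had at most 3 reads in Pachón at 40um. Among those silent in Molino alone, 72 of 154 (46.8%) had at most 3 reads in Molino. The difference from the 41 genes was not tested. The limit is a read count, and the surface 40um libraries together held more gene reads than those of Pachón or of Molino. Median gene levels in the silent population at 40um were 0.448 CPM in surface fish, 0.318 CPM in Pachón and 0.291 CPM in Molino.

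Only 4 genes exceeded 3 reads in each surface 40um library. nmt1b had the most reads, with 4.37, 4.44 and 10.4 CPM in surface fish, 6.05, 4.01 and 3.15 CPM in Pachón and 22.2, 14.3 and 9.84 CPM in Molino. Surface and Pachón values overlapped. ENSAMXG00000031343 had 5, 9 and 19 surface reads, ENSAMXG00000034066 had 4, 24 and 13, and ENSAMXG00000033524 had 5, 6 and 7. The smallest surface oocyte libraries thus held RNA of these genes. Their near absence at the larger sizes was required by the choice, so the contrast between sizes is not a separate result. The 40um libraries also held more RNA of other cells. The stroma markers (9 of 10 found, with no read of lum at 40um) summed to 251 to 842 CPM in the surface 40um libraries and to 18.8 to 390 CPM in those of the larger sizes, and their part in the members' 40um levels was not tested.

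Pachón 40um libraries had higher levels of 7 of the 41 genes than surface fish libraries, and none was called lower. The calls rest on edgeR's quasi-likelihood F test with Benjamini-Hochberg adjustment at 0.05, and 2.02% of the 15917 genes tested were called higher and 0.861% lower. Of the 41 genes 19 passed the filter on low counts and 22 were not tested. A gene can pass that filter through the cave libraries alone, so the count is not a share of all members. The 7 called genes passed it through cave libraries, with no surface 40um level above 1.02 CPM outside ENSAMXG00000031343 (at most 3.39 CPM). Calls of higher rather than lower were thus partly set by entry to the test. Their number beside the share of all genes is therefore no support for the choice. Without a filter 7 were called, and 13 of the 19 had an unadjusted p under 0.05.

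ENSAMXG00000031343 was the clearest, with 0.728, 2.22 and 3.39 CPM in surface fish and 59.2, 133 and 86.2 CPM in Pachón. The groups did not overlap, and the log2 difference was 5.75 ± 0.65 (SE; edgeR, adjusted p = 0.00822). krt98 had 3 surface reads in all and 8.76, 4.34 and 3.72 CPM in Pachón, a ratio of 33.2 (95% counting interval 10.9 to 165; edgeR, adjusted p = 0.0318). lamb4 had 0.437, 0 and 0.536 CPM in surface fish and 3.34, 5.35 and 10.9 CPM in Pachón, a log2 difference of 4.33 ± 1.00 (SE; edgeR, adjusted p = 0.0484).

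The other 4 were ENSAMXG00000035708, ENSAMXG00000015059, ENSAMXG00000032621 and ENSAMXG00000003353. ENSAMXG00000035708 had 0.146, 0 and 0.714 CPM in surface fish and 17.1, 4.01 and 11.5 CPM in Pachón, a log2 difference of 5.26 ± 0.94 (SE; edgeR, adjusted p = 0.0212). ENSAMXG00000015059 had 2 surface reads and 52 in Pachón, a ratio of 38.1 (95% counting interval 10.0 to 323; edgeR, adjusted p = 0.0349). The log2 differences of ENSAMXG00000032621 and ENSAMXG00000003353 were 4.14 ± 0.93 and 2.78 ± 0.63 (SE; edgeR, adjusted p = 0.0442 for both). Every Pachón library lay above every surface library for all 7. With any 1 of the 6 libraries left out 1 to 4 genes were called, and of the 7 only ENSAMXG00000031343 was called each time.

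In Molino 4 of the 41 genes, of which 19 were tested, passed the test against surface fish at 40um, all higher. Of all genes tested, 0.22% were called higher and 0.302% lower. This comparison uses the same 3 surface libraries. The 4 called genes too passed the filter through cave libraries, which limits the comparison in the same way. ENSAMXG00000035708 had 53.1, 64.3 and 202 CPM in Molino, a log2 difference of 8.19 ± 0.99 from surface fish (SE; edgeR, adjusted p = 0.0127). ENSAMXG00000033524 had 15.7, 28.0 and 46.2 CPM against 0.728, 1.48 and 1.25 CPM in surface fish, a log2 difference of 4.56 ± 0.71 (SE; edgeR, adjusted p = 0.0307). For ENSAMXG00000031343, at 26.9, 34.8 and 37.0 CPM, it was 3.83 ± 0.60 (SE; edgeR, adjusted p = 0.0308). For ENSAMXG00000003353, at 6.14, 11.1 and 8.35 CPM against 1.02, 0.740 and 0.179 CPM, it was 3.53 ± 0.63 (SE; edgeR, adjusted p = 0.0428). None of the 4 overlapped with surface fish, and a further 7 genes had an unadjusted p under 0.05. With 1 of the 6 libraries left out the count ranged from 0, without Molino replicate 2, to 7, without surface fish replicate 2.

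**Figure D3:**
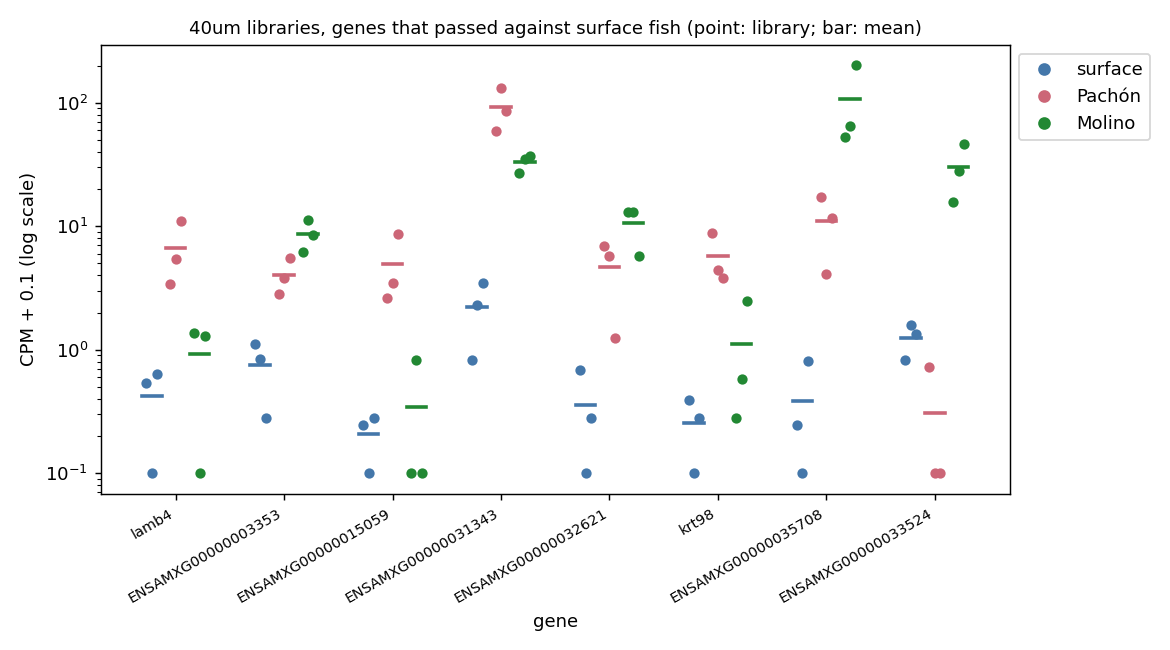
CPM plus 0.1 (log scale) in the 9 libraries of 40um for the 8 genes called against surface fish in Pachón or in Molino, with points for libraries and bars for means of 3. ENSAMXG00000031343, ENSAMXG00000035708 and ENSAMXG00000003353 were called in both, and ENSAMXG00000033524 was read in Molino and surface fish but in only 1 of the 3 Pachón libraries.

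Counted without a model, every Pachón library lay above every surface library for 15 of the 41 genes, against 7.15% of the 25262 genes with a read at 40um, and every Molino library did so for 22, against 8.17%. The reverse order was seen for 1 gene in Pachón, ENSAMXG00000033524, against 12.8% of those genes, and for 0 in Molino, against 6.88%. The mean was above that of surface fish for 32 genes in Pachón, 35 in Molino and 28 in both. Genes at the low end rest on few reads. LRRC4B had no surface read at 40um and 0.417, 0 and 0.859 CPM in Pachón, which overlapped with surface fish. Its 14 Molino reads gave a level 5.92-fold that of 3 surface reads, the limit for 0, without the counting error of the 14. cplx4b had 1 surface read, a ratio of 23.4 (95% counting interval 3.64 to 983) in Pachón and 29.2 (4.74 to 1201) in Molino. scn4ba had 3 surface reads, with ratios of 7.33 (2.07 to 39.5) and 10.1 (3.08 to 52.6).

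Some genes did not show this difference at 40um. nmt1b differed by -0.29 on the log2 scale between Pachón and surface fish (SE 0.53; edgeR, adjusted p = 0.812) and by 1.14 between Molino and surface fish (SE 0.52; edgeR, adjusted p = 0.442). ENSAMXG00000036667 had 3.35, 12.6 and 0.536 CPM in surface fish, with a Pachón mean of 1.37 ± 0.338 CPM (SD, n = 3).

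Some marker sums differed between populations at 40um and others overlapped. The erythrocyte markers (4 of 7 found, with no read of 1 of the genes named HBE1 in each population's 40um libraries) summed to 333 to 1841 CPM in surface fish, 344 to 501 CPM in Pachón and 3288 to 4673 CPM in Molino, and the macrophage and granulocyte markers (8 of 10 found, with no read of 2 of the genes named LYZ in Molino) to 315 to 2176, 91.1 to 828 and 599 to 1582 CPM. Molino replicate 3 had the highest granulosa sum, 1142 CPM, and the highest levels of ENSAMXG00000035708, ENSAMXG00000042367 and ENSAMXG00000029851. The part of these cells in the calls was not tested.

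The cave populations differed from each other at 40um in 3 of the 41 genes. Of the 41, 19 were tested and 9 had an unadjusted edgeR p under 0.05. Of all genes tested, 3.18% were called in either direction. ENSAMXG00000033524 had 3 reads in Pachón and was 103-fold higher in Molino (95% counting interval 35.1 to 503; edgeR, adjusted p = 0.00911). ENSAMXG00000041624 had 1.04, 0 and 2.29 CPM in Pachón and 22.6, 20.3 and 9.24 CPM in Molino, a log2 difference of -3.59 ± 0.83 (SE; edgeR, adjusted p = 0.0461). ENSAMXG00000015059 was higher in Pachón, at 2.50, 3.34 and 8.59 CPM, against 3 Molino reads, a ratio of 20.0 (95% counting interval 6.49 to 100; edgeR, adjusted p = 0.0473). For all 3 the order of Pachón and Molino was the same as at the larger sizes.

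From 40_100um to 100_300um, 3 of the 41 genes rose in Molino, where 12.9% of the 18259 genes tested were called higher and 2.49% lower, and 6 had an unadjusted p under 0.05. The share among the members is thus not above that among all genes. E2F1 had 1.28, 0.547 and 1.20 CPM at 40_100um and 5.64, 7.29 and 7.81 CPM at 100_300um, with no overlap, a log2 difference of 2.52 ± 0.86 (SE; edgeR, adjusted p = 0.0462). At 300um its mean was 5.67 ± 1.29 CPM (SD, n = 3), and at 40um at most 0.894 CPM. ENSAMXG00000033524 rose from 0.319, 0.820 and 0.722 to 2.19, 3.14 and 6.70 CPM, a log2 difference of 2.40 ± 0.68 (SE; edgeR, adjusted p = 0.0174). ENSAMXG00000035708 rose from 0.639, 1.78 and 2.65 to 3.92, 9.19 and 40.7 CPM, a log2 difference of 3.13 ± 0.95 (SE; edgeR, adjusted p = 0.0276). Both of these were also high at 40um, so the 40_100um libraries held their lowest Molino levels. Granulosa marker sums (no read of amh at 40_100um) rose too in Molino, from 1.12, 5.74 and 9.38 to 20.1, 28.7 and 94.9 CPM. Erythrocyte marker sums overlapped between the 2 sizes. The part of other cells in these rises was not tested. The median over all genes in this step was 0.24 on the log2 scale. It was 0.49 when scaled by library totals, and 0.11 with the size factors of DESeq2, under which E2F1 was not called. E2F1 was also not called when any 1 of the 6 libraries was left out (edgeR, adjusted p = 0.068 to 0.208) or without the filter (edgeR, adjusted p = 0.0794). It kept its call in 4 of 12 alternatives. These were library totals, the replicate block, only the 6 libraries compared, and the Wald test of DESeq2 itself. No gene of the 3 was called without Molino 100_300um replicate 3, or without Molino 40_100um replicate 1 or 2.

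In Pachón no member passed that step in the fit without a replicate block, where 8.41% of all genes tested were called in either direction. edgeR's quasi-likelihood F test gave 1 member with an unadjusted p under 0.05, nmt1b, at 3.81 ± 1.06 CPM at 40_100um and 1.86 ± 0.528 CPM at 100_300um (SD, n = 3), a log2 difference of -1.30 ± 0.48 (SE; adjusted p = 0.0952). With the replicate number as a block nmt1b passed (log2 difference -1.26; edgeR, adjusted p = 0.0408), and DESeq2 called it too. From 100_300um to 300um no member passed in Pachón or in Molino by edgeR or by DESeq2, with 2 and 1 members at an unadjusted edgeR p under 0.05, where 0% and 0.00548% of all genes were called. The 300um libraries carry library numbers of another series, and that and size cannot be told apart.

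In Pachón the libraries with the same replicate number resembled each other across sizes, and the levels of some members differed between numbers. Such differences were common among all genes and are not particular to the members. The labels do not say that a number marks a fish. A test of the number beside size in the 9 Pachón libraries of the larger sizes was added after the data had been seen. It called 13 of the 27 members that passed the filter, where 26.8% of the 14774 genes tested were called (edgeR's quasi-likelihood F test, Benjamini-Hochberg adjustment). The other members were not tested, and 17 of the 27 had an unadjusted p under 0.05. In Molino 3 of the 28 members tested were called, where 5.22% of 14396 genes were. Whether these shares differ from those of all genes was not tested.

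mfsd4ab was the extreme case. Pachón number 2 had 63.2, 28.3 and 27.7 CPM from 40_100um to 300um and held 96.4% of the summed level, while numbers 1 and 3 had means of 0.826 and 0.655 CPM (edgeR, adjusted p = 6.14e-16). At 40um, which that test did not use, number 2 was again highest, at 23.4 CPM against 3.75 and 1.15 CPM. ENSAMXG00000042367 was the opposite case, with means of 5.58 and 5.42 CPM in numbers 1 and 2 and 0.0508 CPM in number 3 (edgeR, adjusted p = 1.06e-07). Its 40um reads were 323, 226 and 0.

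Several other members were low in number 3. ENSAMXG00000032596 had means of 8.30, 8.07 and 1.33 CPM in numbers 1, 2 and 3 (edgeR, adjusted p = 1.27e-07) and krt98 had 7.01, 7.89 and 1.37 CPM (edgeR, adjusted p = 1.21e-06). At 40um, however, the reads of ENSAMXG00000032596 were 2, 0 and 8, highest in number 3. prrg2 was highest in number 1, with 4.66, 1.17 and 2.46 CPM (edgeR, adjusted p = 0.000449), and lamb4 was lowest there, with 0.629, 3.44 and 2.92 CPM (edgeR, adjusted p = 0.00097). The number that was highest at the larger sizes was also highest at 40um for 5 of the 13 called genes, and the lowest was also lowest for 7. For 5 genes one number lay above all other libraries of the larger sizes, and for 6 one lay below.

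**Figure D4:**
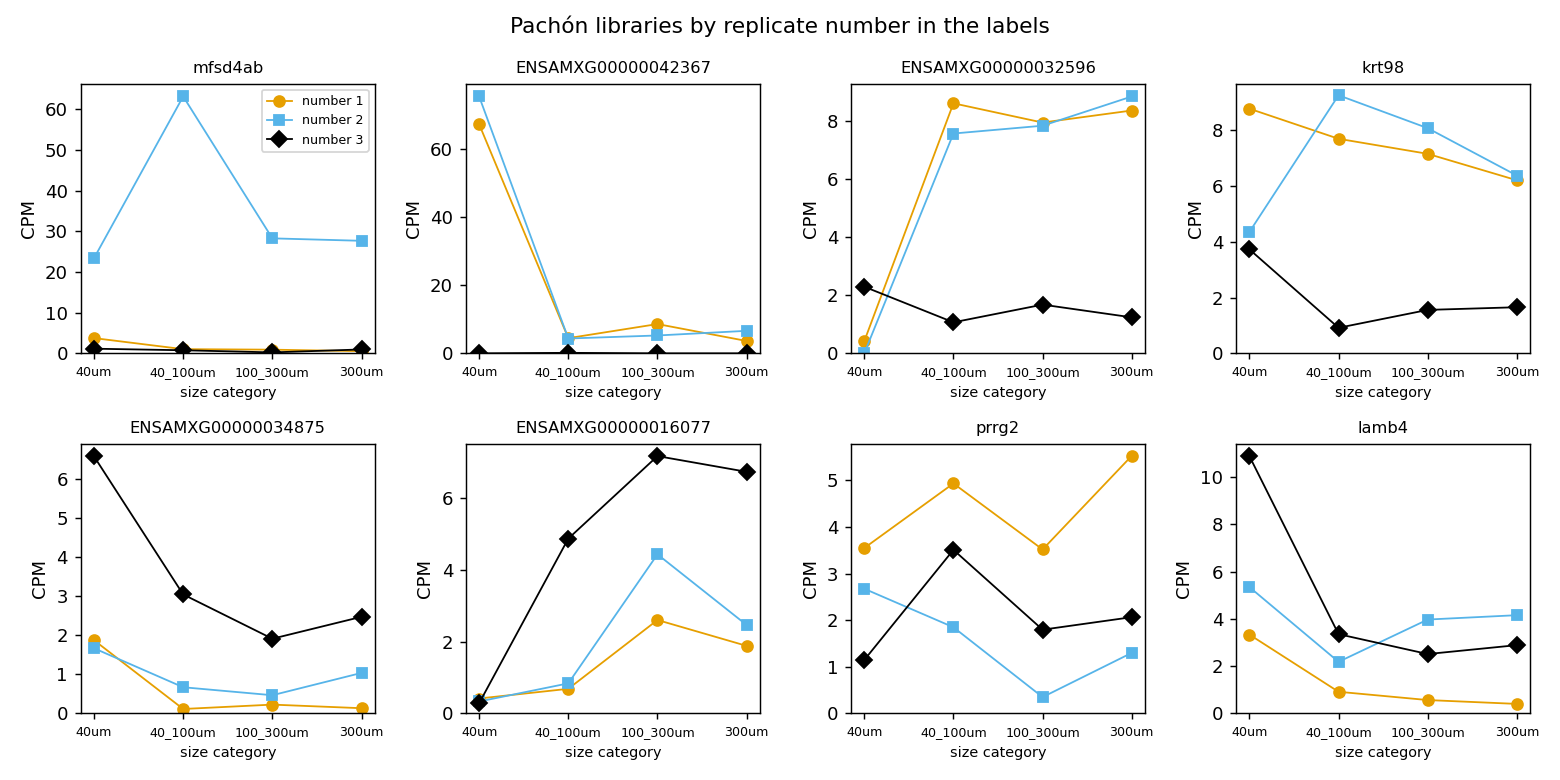
CPM in the 12 Pachón libraries for the 8 genes with the lowest p for replicate number, by size category, with lines joining libraries of the same number. mfsd4ab is high in number 2 at all 4 sizes, and ENSAMXG00000042367 is at or near 0 in number 3 throughout.

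In Molino the called genes were ENSAMXG00000035708 (edgeR, adjusted p = 0.00046), ENSAMXG00000042367 (edgeR, adjusted p = 0.00583) and ENSAMXG00000039667 (edgeR, adjusted p = 0.0334). ENSAMXG00000035708 was highest in number 3, at 2.65, 40.7 and 17.6 CPM from 40_100um to 300um, against 0.639, 3.92 and 4.46 CPM in number 1. ENSAMXG00000042367 ran the same way, with 6.38, 20.2 and 24.6 CPM in number 3 and 0.639, 1.88 and 11.5 CPM in number 1. The highest and the lowest number were the same at 40um for all 3. Granulosa markers (no read of amh at 40_100um) also summed highest in number 3, at 9.38, 94.9 and 144 CPM from 40_100um to 300um. In number 1 they summed to 1.12, 20.1 and 51.6 CPM. Stroma markers were also highest in number 3 at each size. The macrophage and granulocyte markers were not highest there at any of these sizes, and ENSAMXG00000039667 was highest in number 1. The part of other cells in these calls was not tested. ENSAMXG00000015059, which did not pass the filter, had 93.1% of its summed Molino level in number 2. A cave mean of these genes over 9 libraries is therefore a mean over 3 numbers that differ.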

How the data were processed

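Oocyte RNA of 3 populations and 4 size categories was measured by RNA sequencing in 36 libraries. The submitters' processing notes name STAR 2.7.10b and RSEM, and no genome build. The deposited table holds whole-number read counts per Ensembl gene, not normalised as far as the values show. Its 4 entries of unassigned reads, on average 43.1% of reads, were left out. CPM here is counts over the library's gene total. The members and all lists were chosen with earlier results of these data known.

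Named genes are the 12 members with a symbol and the highest cave mean, members called at 40um, members above 3 reads in every surface 40um library, up to 6 called each way per size step, the 4 genes on each side of each limit, and any neighbours; other members are named with counts that single them out, chosen after their values were seen. A few of these genes are not reported here.

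Low genes were removed with filterByExpr (count of 10, total of 15), and counts were scaled with TMM, and given to the robust quasi-likelihood F test of edgeR 4.0.16 in R 4.3.3, with Benjamini-Hochberg adjustment over all genes. The 40um fit used its 9 libraries and the size steps all 36. DESeq2 1.42.0, other scalings, no filter, a replicate block, other library sets and each library left out were alternatives. On simulated data the 40um test recovered 30% of 4-fold and 96% of 8-fold changes in Pachón against surface fish (15853 genes), and 26% and 90% in Molino (16261 genes). The changed genes there were drawn from those with a mean above 10 reads, with a common spread. These shares therefore do not cover members with fewer reads. Counting intervals and limits are 95%.

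Replicate numbers were checked from correlations of deviations from group means. Across the larger sizes the Pachón correlations were 0.376 to 0.580, every one above 0.1, and the numbers were taken to pair those libraries. The reported size steps were still fitted without the number, and the fit with it as a block is given as an alternative. In Molino they were 0.0386 to 0.557, all positive but not all above 0.1, so pairing was not assumed there. Between populations at 40um they were -0.189 to 0.634, and the numbers were not taken to pair. Between 40um and 40_100um libraries of the same number they were 0.231 to 0.306 in Pachón and 0.0896 to 0.295 in Molino.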

Additional observations from a re-analysis of the deposited data

Results flagged for a closer look

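The change from surface fish at 40um differed between Pachón and Molino for 3 genes, by the test of Pachón against Molino itself (edgeR's quasi-likelihood F test, adjusted p at most 0.05). On the log2 scale, Pachón minus Molino, the difference was 4.53 for ENSAMXG00000015059, -6.40 for ENSAMXG00000033524 and -3.59 for ENSAMXG00000041624. No group of 4 to 10 libraries exists here, so no library was tested for standing apart within its group.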

How the results depend on the processing

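The choice gave 41 genes, also with TMM scaling, 2 with 0 surface reads required and 13 at a mean of at least 5 CPM. With 1 surface library left out and the limit kept at 9 reads it gave 43 to 70, a number that cannot fall below 41. At 40um, Pachón against surface fish gave 7 calls, 4 with library totals, 12 with DESeq2, 18 in 1 fit of all libraries and 1 to 4 with 1 library left out; library totals moved the median log2 difference of all genes from -0.07 to -0.33. Molino against surface fish gave 4 calls, 10 with DESeq2, 18 in 1 fit of all libraries, 2 with only the 6 libraries compared and 0 to 7 with 1 library left out. Pachón against Molino gave 3 calls, 8 with DESeq2, 13 in 1 fit of all libraries and 0 to 2 with 1 library left out. Among all genes, the fit of all libraries called 4209, 1974 and 3751 of 18259 in these 3 comparisons, against 458, 83 and 506 of 15917 in the fit of the 40um libraries. The numbers were not taken to pair the 40um libraries, and with the replicate block the 3 counts were 7, 8 and 6. The Molino step to 100_300um gave 3 calls, 1 without the filter, 5 with DESeq2, 6 with only the 6 libraries compared, 4 with the replicate block and 0 to 2 with 1 library left out. Across the larger sizes 18 of 18 comparisons within Molino and Pachón correlated best with their own number, a hint from the data and not the design. The Pachón step gave 0 calls, 1 with DESeq2, 1 with only the 6 libraries compared, 1 with the replicate block and 0 to 0 with 1 library left out; both steps to 300um gave 0 under every alternative run, blocks included. The replicate number in Pachón gave 13 calls, 6 with the 40um libraries added and 9 to 13 with 1 library left out. In Molino it gave 3, 6 without the filter, 6 with the 40um libraries added and 2 to 5 with 1 library left out, 5 being without 40_100um replicate 3. Leaving a library out leaves 2 in its group. Of the alternatives for single called genes, 318 kept the call, 122 lost it and 0 changed direction. Only the cause built into an alternative (fewer libraries, fewer or more genes tested) is known, and any other was not tested. Depth limits what can be tested: the shallowest library held 2992119 gene reads, and 22 members were under the filter at 40um.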
